A study of Homo sapiens with 12 samples.

Results

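The splicing of NDUF genes, which encode the nuclear subunits and assembly factors of mitochondrial complex I, was followed in 293A-TOA cells, a line derived from the human embryonic kidney line HEK293A, after knockdown of the splicing regulator SFSWAP. The members were all exon skipping and intron retention events whose gene symbol starts with NDUF and whose inclusion and skipping reads averaged at least 10 per library. They numbered 457 events of 43 genes (413 skipped exons and 44 retained introns), of which 218 were present at that depth in both the tables with and without UPF1 knockdown. Without UPF1 knockdown, 300 skipped exons and 34 retained introns of NDUF genes met the read minimum, of 97177 and 8017 over all genes, and with UPF1 knockdown 308 and 33 of NDUF genes met it, of 93272 and 7118 over all genes. The weakest exon member had 10.2 reads per library and the strongest exon left out had 9 reads in the tables without UPF1 knockdown.

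There were 4 groups of 3 biological replicates: siSFSWAP (40 nM SFSWAP siRNA), siNT (non-target siRNA), siSFSWAP/siUPF1 and siNT/siUPF1 (each with 30 nM UPF1 siRNA). Knockdown lasted 5 days, and cells of all 4 groups also received 1 μM Thiamet-G (TG), an inhibitor of the enzyme that removes O-GlcNAc from proteins, for 6 hr before harvest, so that no group shows the cells without the inhibitor. The SFSWAP siRNA was a mixture directed at that gene, and the polyadenylated RNA was read in single-end libraries. UPF1 is the helicase at the core of nonsense-mediated decay (NMD), the pathway that degrades mRNAs with a stop codon well ahead of their last exon junction, and its knockdown was used to see RNA forms that decay would otherwise remove. The study describes the RNA-seq with UPF1 knockdown as a further experiment, and its UPF1 siRNA was added to the other siRNA. Experiment and siRNA amount therefore cannot be told apart from UPF1 knockdown where groups with and without it are compared. The files give the 3 libraries of a group as an unnumbered list, so libraries are called 1, 2 and 3 by their place in it.

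Complex I oxidises NADH in the mitochondrial matrix, passes the electrons through a flavin and a chain of iron-sulfur clusters to ubiquinone, and pumps protons across the inner membrane. Its matrix arm holds the NADH site and the clusters, its membrane arm holds the proton channels, and a set of NDUFAF proteins helps to put the arms together. The subunits are encoded by many small nuclear genes spread over the chromosomes, next to a few mitochondrial ones, and complex I depends on their joint supply. The members fell into 226 events of 15 matrix arm genes, 145 events of 19 membrane arm genes, 76 events of 7 assembly factor genes and 10 events of 2 other symbols, NDUFA4, which is now counted with complex IV, and the read-through symbol NDUFC2KCTD14.

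The sequences below are those on which the results turn, all in the sense of the RNA and from the GRCh38 reference, with exons numbered in the MANE Select transcript of GENCODE. NDUFV1 exons 7 and 8, on the plus strand at chr11:67611403-67611569 and chr11:67611897-67611978, are coding exons that were skipped together in control cells. In them and in all exons printed here the capitals at the ends are the last 2 bases of the intron before and the first 2 bases of the intron after, and the inner capitals of exon 7 are the AG dinucleotides in front of 3 further 3′ splice sites that the tables list, which leave 93, 81 and 48 bases of the exon.
NDUFV1 exon 7: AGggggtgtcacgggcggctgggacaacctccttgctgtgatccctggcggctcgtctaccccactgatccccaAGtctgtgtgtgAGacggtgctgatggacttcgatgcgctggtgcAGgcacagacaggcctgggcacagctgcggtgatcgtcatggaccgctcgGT
NDUFV1 exon 8: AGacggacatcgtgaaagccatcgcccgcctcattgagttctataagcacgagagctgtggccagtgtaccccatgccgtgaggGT
NDUFB10 intron 3, on the plus strand at chr16:1961637-1961796, is the 160-base intron whose retention fell in both comparisons of SFSWAP knockdown, and its capitals are the GT and AG at its ends and the in-frame stop codon that a retained copy would bring, at base 96.
NDUFB10 intron 3: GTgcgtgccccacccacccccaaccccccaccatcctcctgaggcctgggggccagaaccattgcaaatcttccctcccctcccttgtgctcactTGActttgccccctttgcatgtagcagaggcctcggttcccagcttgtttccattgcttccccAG

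3 further exons lie inside introns of the MANE transcripts and are shown because their inclusion is the readout of a rare form. The NDUFS4 exon in intron 2 (plus strand, chr5:53604724-53604895), the NDUFA5 exon in intron 3 (minus strand, chr7:123546658-123546817) and the NDUFS8 exon in intron 5 (plus strand, chr11:68034025-68034174) have lengths of 172, 160 and 150 bases. Inner capitals mark the first stop codon in the MANE reading frame. The NDUFS4 exon holds none, since it shifts the frame and the stop falls in the exon 3 that follows it.
NDUFS4 intron 2 exon: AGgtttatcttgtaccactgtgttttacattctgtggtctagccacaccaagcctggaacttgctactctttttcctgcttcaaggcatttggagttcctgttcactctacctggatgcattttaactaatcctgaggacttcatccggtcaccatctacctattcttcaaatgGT
NDUFA5 intron 3 exon: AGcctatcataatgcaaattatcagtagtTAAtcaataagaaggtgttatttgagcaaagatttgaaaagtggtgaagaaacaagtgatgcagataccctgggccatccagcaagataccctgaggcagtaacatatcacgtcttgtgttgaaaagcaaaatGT
NDUFS8 intron 5 exon: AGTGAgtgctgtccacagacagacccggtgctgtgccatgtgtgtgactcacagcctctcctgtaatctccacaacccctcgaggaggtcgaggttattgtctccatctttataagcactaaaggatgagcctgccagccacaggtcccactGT
The first 2 are exons of GENCODE transcripts and the NDUFS8 exon is not. It ends at the same base as an exon that the study added to its annotation as a predicted decoy exon.

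The MANE exons called as skipped more often after SFSWAP knockdown are also given. NDUFS4 exon 4, NDUFA4 exon 2 and NDUFB6 exon 2 were called only without UPF1 knockdown, and NDUFB6 exon 3 only with it. NDUFS4 exon 4 lies on the plus strand at chr5:53658551-53658624, and NDUFA4 exon 2, NDUFB6 exon 2 and NDUFB6 exon 3 lie on the minus strand at chr7:10938808-10938896, chr9:32570960-32571052 and chr9:32558910-32558954.
NDUFS4 exon 4: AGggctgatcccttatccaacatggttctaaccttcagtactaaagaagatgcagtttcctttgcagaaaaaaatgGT
NDUFA4 exon 2: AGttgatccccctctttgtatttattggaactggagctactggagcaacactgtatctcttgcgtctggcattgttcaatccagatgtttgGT
NDUFB6 exon 2: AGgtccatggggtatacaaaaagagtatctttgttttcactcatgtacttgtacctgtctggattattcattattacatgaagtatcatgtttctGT
NDUFB6 exon 3: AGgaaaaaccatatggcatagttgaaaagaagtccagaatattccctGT

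Of the 339 different exons among the members, 91 were MANE exons, 138 lay wholly inside a MANE intron and 108 overlapped a MANE exon with another end, and 333 had the usual AG and GT or GC at their borders. Of the 41 different introns, 20 were MANE introns, and all 41 had such borders. Most members were spliced one way: the mean inclusion level, which runs from 0 to 1, was at least 0.9 for 170 of 300 exons without UPF1 knockdown (56.7%, against 65.1% of all exons) and for 166 of 308 with it (53.9%, against 62.1%). In the tables without UPF1 knockdown 104 exon members had fewer than 10 skipping reads over the 6 libraries and 48 had fewer than 10 inclusion reads, and these were described but not tested.

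The libraries held 25938092 to 40637076 reads at skipped exons and 1812794 to 3030493 at retained introns, where a read can count at several events. Reads at the SFSWAP gene checked the labels: they were 61.1% lower in siSFSWAP (37.4, 59.3 and 44.7 reads per 1000000 at skipped exons) than in siNT (127, 114 and 122), and 59.8% lower in siSFSWAP/siUPF1 than in siNT/siUPF1. UPF1 reads were 70.4% lower in siNT/siUPF1 than in siNT. In each case the 3 knockdown libraries lay below the 3 others, with a two-sided exact permutation p of 0.1, the smallest that 3 against 3 allows. The libraries of a group were not alike: siNT library 2 was the siNT library nearest to the siSFSWAP mean in 63.2% of the exons called higher and 72.6% of the introns called lower over all genes, and siNT/siUPF1 library 3 was the nearest to the siSFSWAP/siUPF1 mean in 75.5% and 77.3%. Among exons called lower this did not hold: siNT library 1 was the nearest in 45% and library 2 in 32.3%, and siNT/siUPF1 library 1 was the nearest in 40.2% and library 3 in 37.4%. Among the NDUF genes with called exons, siNT library 2 was the nearest in 3 of the 4 that rose and 3 of the 4 that fell. From the other side, siSFSWAP library 3 was nearest to the siNT mean in 4 of the 4 that rose (32.1% over all genes). It was nearest in 2 of the 4 that fell (18.3% over all genes). What sets these libraries apart was not tested.

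With SFSWAP knockdown, exons of 8 NDUF genes changed. Inclusion rose in NDUFV1, NDUFV3, NDUFC1 and NDUFAF6 and fell in NDUFA4, NDUFS4, NDUFB6 and NDUFS3, and most of the called events were in NDUFV1, the subunit that binds NADH and the flavin. Of 148 tested NDUF exon events of 31 genes, 14 rose and 7 fell (14.2%), where 12% of the 33839 exon events tested over all genes changed, 7.76% up and 4.21% down. NDUFV1 supplied 11 of the 14. Without it, 3 of 135 events rose and 7 fell (7.41%), and the median difference in log2 odds of inclusion (siSFSWAP minus siNT) was −0.17, where that of all genes was 0.27. Calls were made with a quasi-binomial test of inclusion against skipping reads, moderated with limma and with Benjamini-Hochberg adjustment over all events of the type. A test by limma on the log2 odds of inclusion in each library, which gives each library the same weight, kept 5 of the 21 calls, in NDUFV1 and NDUFA4.

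**Figure D1:**
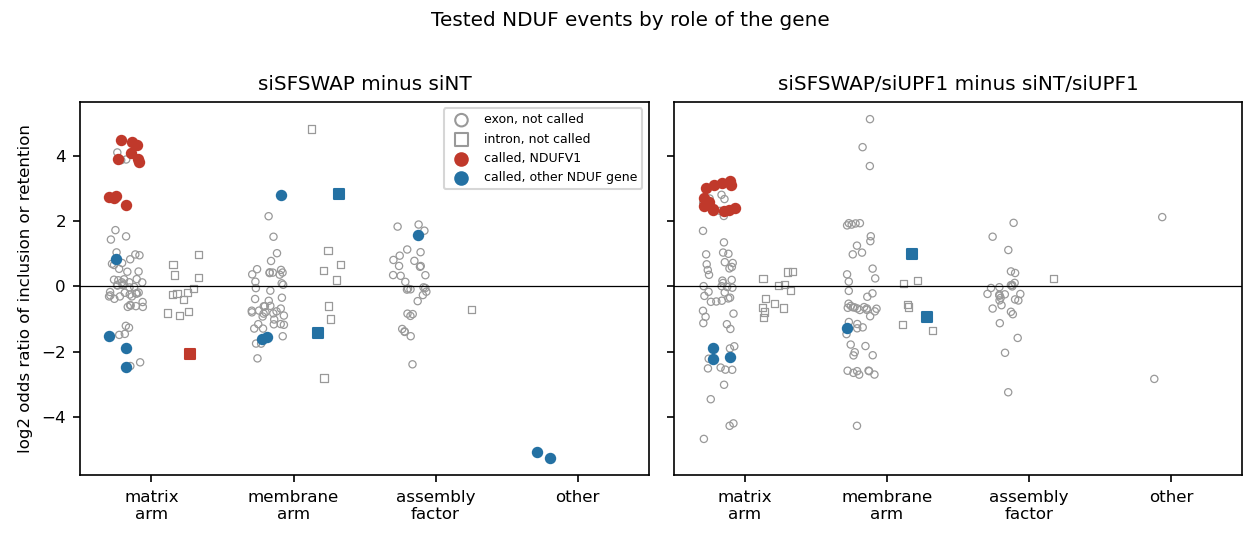
Log2 odds ratio of inclusion (circles) or retention (squares) for every tested NDUF event, by the role of its gene, for siSFSWAP minus siNT (left) and siSFSWAP/siUPF1 minus siNT/siUPF1 (right). Filled red marks are called events of NDUFV1, filled blue marks are called events of other NDUF genes and open marks are events that did not pass the test. The red circles in the matrix arm column make up 11 of the 14 exon calls above 0 on the left and all 13 on the right.

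NDUFV1 exon 7 had the lowest adjusted p of the NDUF exons. Its inclusion level against the joint of exon 6 with exon 9 was 0.971, 0.994 and 0.913 in siSFSWAP, against 0.438, 0.839 and 0.370 in siNT. The 3 siSFSWAP libraries were all above the 3 siNT libraries, and siNT library 2 stood nearest to them. The odds of inclusion rose by 4.42 on the log2 scale (SE 0.67, adjusted p = 2.57e-11 by the quasi-binomial test). This p-value rests on a dispersion moderated toward the average of all exon events, and it understates the spread of the siNT libraries. The call held without any 1 of the 6 libraries (log2 odds ratio 3.84 to 5.57), while limma on library log2 odds gave an adjusted p of 0.0577.

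With UPF1 also knocked down, exon 7 levels were 0.970, 0.952 and 0.965 in siSFSWAP/siUPF1, against 0.708, 0.728 and 0.954 in siNT/siUPF1. The rise was 2.71 (log2 odds ratio, SE 0.68, adjusted p = 3.41e-04), and siNT/siUPF1 library 3 lay within the range of the siSFSWAP/siUPF1 libraries. UPF1 knockdown on its own raised exon 7 inclusion by 1.77 (siNT/siUPF1 minus siNT, log2 odds ratio, SE 0.44, adjusted p = 0.0202), although the ranges overlapped, and in cells with SFSWAP knockdown the UPF1 effect was 0.07 (siSFSWAP/siUPF1 minus siSFSWAP, SE 0.73, adjusted p = 1.00). The SFSWAP effect itself was 1.71 smaller with UPF1 knockdown (SE 1.30), which did not pass the test of the difference (adjusted p = 0.807).

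The skipping reads behind these values show which exons were left out together. Exon 6 was joined directly to exon 9, leaving out exons 7 and 8, in 6, 1 and 15 reads of siSFSWAP, against 110, 29 and 142 reads of siNT, and in 4, 7 and 6 reads of siSFSWAP/siUPF1, against 56, 56 and 9 reads of siNT/siUPF1. Exon 6 was joined to exon 8 in 0, 0 and 8 reads of siSFSWAP, against 10, 6 and 18 reads of siNT, in ranges that overlapped, and in 0, 5 and 0 reads of siSFSWAP/siUPF1, against 21, 21 and 9 reads of siNT/siUPF1, which did not overlap. The joint of exon 7 with exon 9, which leaves out exon 8 alone, had 40, 16 and 45 reads in siSFSWAP, against 23, 14 and 33 reads in siNT, and 28, 32 and 22 reads in siSFSWAP/siUPF1, against 21, 65 and 32 reads in siNT/siUPF1, and both pairs of ranges overlapped. Its sum was higher in siSFSWAP than in siNT (101 and 70 reads) and lower in siSFSWAP/siUPF1 than in siNT/siUPF1 (82 and 118 reads). These read counts were not tested on their own. Leaving out exons 7 and 8 together keeps the reading frame and gives 381 codons in place of 464, while leaving out exon 7 alone brings a stop after 315 codons, 193 bases ahead of the last exon junction.

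**Figure D2:**
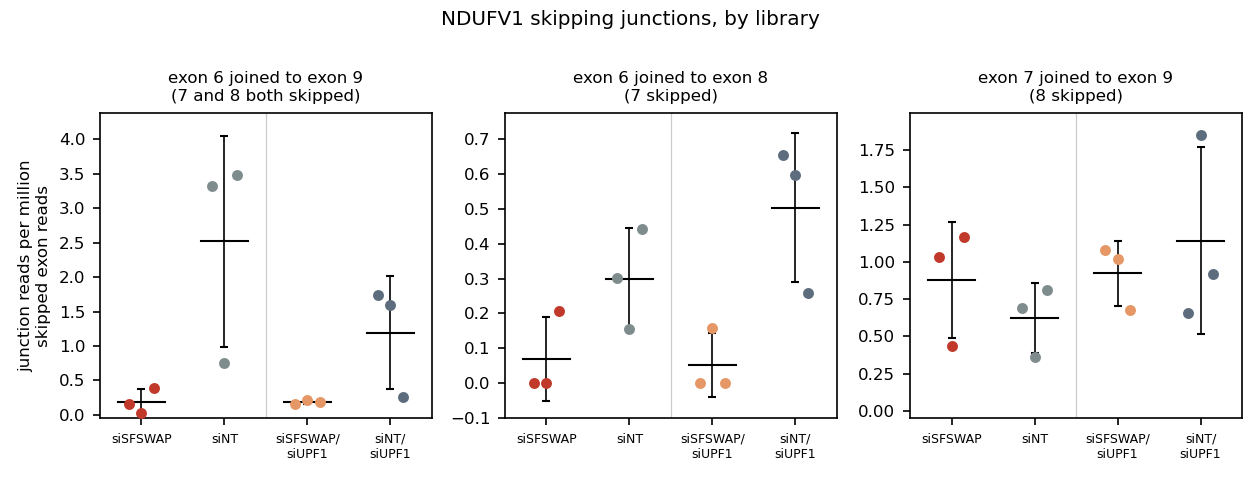
Abundance of 3 NDUFV1 skipping joints (reads per 1000000 at skipped exons), by library (points), with the group mean (line) and SD (whisker, n = 3 libraries) for siSFSWAP, siNT, siSFSWAP/siUPF1 and siNT/siUPF1. The joint of exon 6 with exon 9 lay between 0.0271 and 0.389 in siSFSWAP and between 0.747 and 3.49 in siNT, while the joint of exon 7 with exon 9 overlapped between the groups.

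Exon 8, measured against the same joint, had levels of 0.974, 0.995 and 0.924 in siSFSWAP, against 0.555, 0.867 and 0.460 in siNT (log2 odds ratio 4.09, SE 0.64, adjusted p = 1.88e-10). The events listed for shorter forms of exon 7, which start at the inner AG sites, went the same way. Their inclusion reads can include the joint of exon 7 with exon 9, which these forms share (101 reads in siSFSWAP and 70 in siNT). They therefore do not show use of the inner sites. The 93-base form had levels of 0.766, 0.898 and 0.579 in siSFSWAP, against 0.0857, 0.138 and 0.0863 in siNT (log2 odds ratio 4.46, SE 0.62, adjusted p = 9.69e-10), from 17 to 40 inclusion reads per siSFSWAP library, against 9 to 26 per siNT library. Here the 3 siNT libraries lay close together, and far below the siSFSWAP libraries. These NDUFV1 events are not separate observations: 7 of the 11 called exon events without UPF1 knockdown and 8 of the 13 with it were scored against the same reads from exon 6 to exon 9.

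Intron 7 of NDUFV1, between these exons (327 bases, chr11:67611570-67611896), was retained less. Its retention level was 0.0227, 0.0294 and 0.0388 in siSFSWAP, against 0.113, 0.0588 and 0.20 in siNT, and the ranges did not overlap. The odds of retention fell by 2.08 on the log2 scale (SE 0.37, adjusted p = 2.21e-04), and the call held without any 1 library. With UPF1 knockdown the levels were 0.0209, 0.0637 and 0.0259 in siSFSWAP/siUPF1, against 0.0477, 0.0986 and 0.0501 in siNT/siUPF1 (log2 odds ratio −0.95, adjusted p = 0.215), which passed the test only when siNT/siUPF1 library 3 was left out (adjusted p = 0.0426). Intron 2 of the same gene, the matrix arm intron with the most reads, gave a log2 odds ratio of −0.06 (adjusted p = 0.939) without and −0.12 (adjusted p = 0.881) with UPF1 knockdown.

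NDUFV3 encodes an accessory subunit beside NDUFV1 whose long exon 3 (1095 bases, chr21:42903182-42904276) is used in only part of its mRNA. Exon 3 inclusion was 0.309, 0.367 and 0.305 in siSFSWAP, against 0.205, 0.290 and 0.160 in siNT, with no overlap. It rose by 0.84 (log2 odds ratio, SE 0.15, adjusted p = 1.57e-05), and the call held without any 1 library. With UPF1 knockdown the levels were 0.363, 0.279 and 0.356 in siSFSWAP/siUPF1, against 0.369, 0.284 and 0.337 in siNT/siUPF1 (log2 odds ratio 0.00, SE 0.15, adjusted p = 0.991). The level was therefore about one value in 3 of the groups and lower in siNT: siNT/siUPF1 exceeded siNT by 0.83 (log2 odds ratio, SE 0.17, adjusted p = 0.00436, lost at an adjusted p of 0.0637 without siNT library 3), in ranges that overlapped. The 2 SFSWAP effects differed by 0.83 (SE 0.27), at an adjusted p of 0.594 and an unadjusted p of 0.00351, and the adjusted test passed only without siNT library 2. Without exon 3 the reading frame is kept and the protein has 108 codons in place of 473.

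NDUFS4, a matrix arm subunit needed for the stability of the NADH-binding part, had 2 changes. Exon 4 inclusion was 0.891, 0.878 and 0.874 in siSFSWAP, against 0.966, 0.930 and 0.983 in siNT, with no overlap, and fell by 1.53 on the log2 odds scale (SE 0.42, adjusted p = 0.00389, held without any 1 library). With UPF1 knockdown the levels were 0.910, 0.908 and 0.926 in siSFSWAP/siUPF1, against 0.912, 0.948 and 0.920 in siNT/siUPF1 (log2 odds ratio −0.19, adjusted p = 0.815). The frame is lost without exon 4, with a stop after 120 of 175 codons that lies in the last exon.

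The 172-base NDUFS4 exon in intron 2 was included less in both comparisons of SFSWAP knockdown. Its levels were 0.0145, 0.00568 and 0.0137 in siSFSWAP, against 0.0477, 0.0305 and 0.0439 in siNT (log2 odds ratio −1.88, SE 0.53, adjusted p = 0.00565). They were 0.0275, 0.0298 and 0.0154 in siSFSWAP/siUPF1, against 0.0725, 0.127 and 0.0563 in siNT/siUPF1 (log2 odds ratio −1.90, SE 0.43, adjusted p = 4.11e-04, held without any 1 library). Neither pair of groups overlapped, and the 2 effects differed by −0.02 (SE 0.67, adjusted p = 1.00). UPF1 knockdown on its own gave 1.12 (siNT/siUPF1 minus siNT, SE 0.38), at an adjusted p of 0.143. Included in the MANE transcript, this exon leads to a stop after 131 codons, 200 bases ahead of the last junction.

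NDUFA4 was named as a complex I subunit and is now placed in complex IV. Its exon 2 was skipped in 15, 10 and 13 reads of siSFSWAP, against 1, 0 and 0 reads of siNT, and the levels were 0.978, 0.981 and 0.971 in siSFSWAP, against 0.998, 1.00 and 1.00 in siNT. The groups did not overlap, and inclusion fell (adjusted p = 0.00101, and 0.0239 by limma on library log2 odds). The call held without any 1 library. With UPF1 knockdown the skipping reads were 9, 10 and 5 in siSFSWAP/siUPF1, against 0, 4 and 0 in siNT/siUPF1 (log2 odds ratio −2.84, SE 1.27, adjusted p = 0.0858). Without exon 2 the frame ends after 18 of 81 codons, 43 bases ahead of the last junction. The skipped form was rare throughout, since no library had a level under 0.971.

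Exon calls in 4 further genes without UPF1 knockdown rested on small differences or few reads. For the event named first in each gene, the call was lost when any of 5 of the 6 libraries was left out. The adjusted p then reached 0.128 in NDUFB6, 0.203 in NDUFAF6, 0.105 in NDUFC1 and 0.462 in NDUFS3. The first 2 held only without siNT library 2, and the other 2 only without siSFSWAP library 3. NDUFB6, a membrane arm subunit, had exon 2 levels of 0.923, 0.899 and 0.929 in siSFSWAP, against 0.974, 0.966 and 0.974 in siNT (log2 odds ratio −1.63, adjusted p = 0.0310). A 97-base form of exon 2 (chr9:32570956-32571052) was also called, at mean levels of 0.796 in siSFSWAP and 0.918 in siNT. It starts at the same 3′ splice site as exon 2, so its inclusion reads can include those of exon 2. Its level therefore does not show use of the 97-base form. With UPF1 knockdown this form was at 0.88 in siSFSWAP/siUPF1 and 0.872 in siNT/siUPF1. NDUFAF6, an assembly factor, had a 119-base exon in intron 4 at 0.134, 0.131 and 0.120 in siSFSWAP, against 0.0103, 0.0803 and 0.0507 in siNT (log2 odds ratio 1.56, adjusted p = 0.0383). With UPF1 knockdown its mean level was 0.0676 in siSFSWAP/siUPF1, against 0.104 in siNT/siUPF1 (log2 odds ratio −0.78, adjusted p = 0.327). The 2 effects differed by −2.34 (SE 0.67), at an adjusted p of 0.492 and an unadjusted p of 9.84e-04. NDUFC1, a membrane arm subunit, had a 103-base exon in intron 1, in the 5′ UTR, at 0.849, 0.718 and 0.530 in siSFSWAP, against 0.300, 0.214 and 0.179 in siNT (log2 odds ratio 2.78, adjusted p = 0.0259), from 13 to 33 reads per library. Both forms of this event run from exon 1 to exon 3 and leave out exon 2. The levels are therefore shares among RNAs without exon 2, not among all NDUFC1 RNA. NDUFS3, a core subunit of the matrix arm, had an exon that overlaps its exon 6 at 0.855, 0.936 and 0.976 in siSFSWAP, against 0.982, 0.978 and 0.992 in siNT (log2 odds ratio −2.47, adjusted p = 0.0458), and siSFSWAP library 1 held 22 of the 33 skipping reads of that group. The overlapping exon ends at the same base as exon 6, so its inclusion reads can include the joint of exon 6 with exon 7. In these 4 genes the siSFSWAP and siNT levels did not overlap, but the events had been picked by a test on the same reads.

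**Figure D3:**
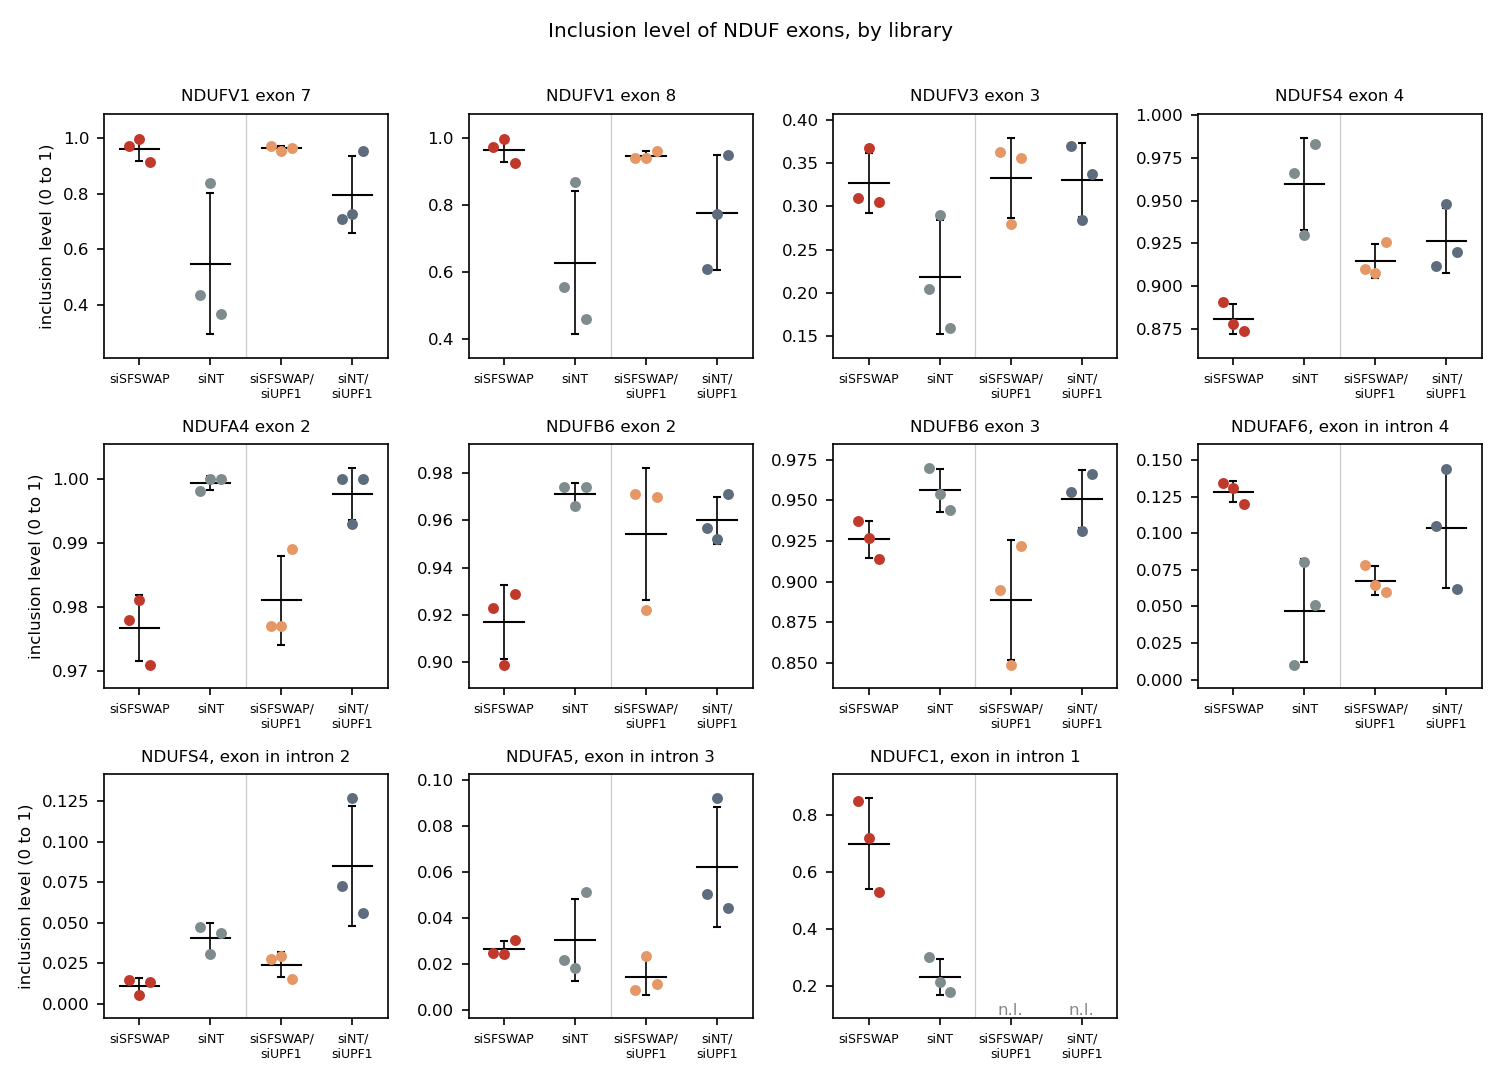
Inclusion level of 11 NDUF exons by library (points), with the group mean (line) and SD (whisker, n = 3 libraries), for siSFSWAP, siNT, siSFSWAP/siUPF1 and siNT/siUPF1. Each panel has its own axis, and n.l. marks groups in whose table the event is not listed. NDUFV1 exon 7 lay at 0.913 or above in siSFSWAP and at 0.839 or below in siNT, whereas the exons inside introns stayed at low levels except in NDUFC1.

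In cells with UPF1 knockdown, the SFSWAP siRNA changed exons of 4 NDUF genes. Of 149 tested exon events of 32 genes, 13 rose and 4 fell (11.4%), where 7.52% of the 34006 events over all genes changed, 4.05% up and 3.47% down. All 13 that rose were in NDUFV1. Without that gene, 0 of 134 events rose and 4 fell (2.99%), the 0 by the quasi-binomial test and also by limma, with 28 of the 134 at an unadjusted p under 0.05. The median log2 odds ratio of the 149 was −0.26, where that of all genes was 0.08. No call remained with limma on library log2 odds, which called 17 events over all genes.

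The NDUFA5 exon in intron 3 was included at 0.00873, 0.0233 and 0.0110 in siSFSWAP/siUPF1, against 0.0502, 0.0921 and 0.0442 in siNT/siUPF1, and the groups did not overlap. NDUFA5 is an accessory subunit of the matrix arm. The fall was 2.22 on the log2 odds scale (SE 0.56, adjusted p = 0.00156, held without any 1 library). Without UPF1 knockdown the levels were 0.0245, 0.0240 and 0.0304 in siSFSWAP, against 0.0218, 0.0181 and 0.0510 in siNT (log2 odds ratio −0.31, adjusted p = 0.770), and the difference between the 2 effects was −1.91 (SE 0.72, adjusted p = 0.676). A longer form of the exon, of 235 bases, fell as well (log2 odds ratio −2.17, adjusted p = 0.0125) on the same skipping reads. Including the 160-base exon ends the frame after 70 of 116 codons, 196 bases ahead of the last junction.

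NDUFB6 exon 3 was included at 0.895, 0.849 and 0.922 in siSFSWAP/siUPF1, against 0.955, 0.931 and 0.966 in siNT/siUPF1 (log2 odds ratio −1.28, SE 0.40, adjusted p = 0.0246). The groups did not overlap, but the call was lost without any 1 of 4 of the 6 libraries (adjusted p up to 0.205), and held without siNT/siUPF1 library 2 or siSFSWAP/siUPF1 library 3. A gene on the other strand, SMIM27, overlaps this exon. Without UPF1 knockdown it was included at 0.937, 0.927 and 0.914 in siSFSWAP, against 0.970, 0.954 and 0.944 in siNT (log2 odds ratio −0.74, adjusted p = 0.265). Exon 2 of the gene, called without UPF1 knockdown, gave −0.14 with it (adjusted p = 0.932). Both exons hold a whole number of codons, and their loss shortens the protein by frame-keeping steps to 97 codons without exon 2 and 113 codons without exon 3, in place of 128.

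UPF1 knockdown alone changed 5 of 118 tested NDUF exon events (4.24%, against 1.17% of 28261 over all genes), all upwards: 3 in NDUFV1, 1 in NDUFV3 and 1 in NDUFA5. The 3 NDUFV1 events share the reads from exon 6 to exon 9. Counting 1 event per exon left 2 calls, leaving out 1 library gave 1 call (without siNT library 1) to 7 calls (without siNT library 2), and limma on library log2 odds called 0 of the 118, with 27 at an unadjusted p under 0.05 in the quasi-binomial test. In cells with SFSWAP knockdown, UPF1 knockdown called 0 of 104 NDUF exon events (background 0.0816%), with 6 at an unadjusted p under 0.05, and limma on library log2 odds also called 0. Experiment and siRNA amount differed along with UPF1 in both comparisons and cannot be told apart from it.

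Retained introns of NDUF genes were few. Of 24 tested without UPF1 knockdown, 1 rose and 2 fell (12.5%), where 10.4% of 5845 introns over all genes changed, 1.33% up and 9.1% down. The 1 that rose takes in part of NDUFB10 exon 2, as described below. With UPF1 knockdown 1 of 21 rose and 1 fell (9.52%, against 3.57% of 5105 over all genes, 0.979% up and 2.59% down). None of these calls remained with limma on library log2 odds, which called 0 introns over all genes without UPF1 knockdown and 1 with it.

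NDUFB10, a membrane arm subunit, had the NDUF intron with the most reads. Retention of its intron 3 was 0.250, 0.231 and 0.227 in siSFSWAP, against 0.495, 0.313 and 0.553 in siNT. The siSFSWAP libraries lay close together and below all siNT libraries, which were widely spread. Retention fell by 1.42 (log2 odds ratio, SE 0.17, adjusted p = 1.27e-06), and the call held without any 1 library. With UPF1 knockdown it was 0.244, 0.243 and 0.185 in siSFSWAP/siUPF1, against 0.393, 0.434 and 0.255 in siNT/siUPF1, again without overlap, and fell by 0.94 (SE 0.18, adjusted p = 0.00204, lost at an adjusted p of 0.0745 without siSFSWAP/siUPF1 library 3). The 2 effects differed by 0.48 (SE 0.35, adjusted p = 0.833). UPF1 knockdown alone gave −0.60 (siNT/siUPF1 minus siNT, adjusted p = 0.525). The stop codon in the retained intron ends the frame after 168 codons in place of 172, and no exon junction follows it.

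The NDUFB10 intron event that rose without UPF1 knockdown, chr16:1961184-1961496, starts at a rarely used donor inside exon 2 and spans intron 2. The event therefore takes in bases of exon 2, so its high level does not measure retention of intron 2 alone. Its spliced form had 0, 3 and 2 reads in siSFSWAP, against 11, 2 and 15 reads in siNT, and the levels of 1.00, 0.990 and 0.993 in siSFSWAP and 0.958, 0.992 and 0.944 in siNT overlapped (adjusted p = 0.0444, up to 0.246 when any library but siNT library 2 was left out). Intron 2 itself (chr16:1961292-1961496) had mean levels of 0.00999 in siSFSWAP and 0.0151 in siNT (log2 odds ratio −0.60, adjusted p = 0.0636). NDUFB10 exon 2, the membrane arm exon with the most reads, was at 0.997 or above in the siSFSWAP and 0.998 or above in the siNT libraries (adjusted p = 0.504), and gave −0.64 with UPF1 knockdown (log2 odds ratio, adjusted p = 0.775).

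NDUFA10, an accessory subunit of the membrane arm, moved the other way. Retention of its intron 5 (3042 bases, chr2:240011697-240014738) was 0.188, 0.20 and 0.224 in siSFSWAP/siUPF1, against 0.103, 0.107 and 0.127 in siNT/siUPF1, with no overlap, and rose by 1.00 (log2 odds ratio, SE 0.18, adjusted p = 8.45e-04, held without any 1 library). Without UPF1 knockdown it was 0.133, 0.142 and 0.195 in siSFSWAP, against 0.120, 0.0936 and 0.153 in siNT (log2 odds ratio 0.47, SE 0.20, adjusted p = 0.154). The difference between the effects was 0.53 (SE 0.28, adjusted p = 0.785). A retained copy ends the frame after 236 of 355 codons, 3330 bases ahead of the last junction. UPF1 knockdown called 0 of 18 NDUF introns in cells with siNT (background 0.0659%) and 0 of 17 in cells with siSFSWAP (background 0.166%), with 1 at an unadjusted p under 0.05 in each, and limma on library log2 odds also called 0 of both.

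**Figure D4:**
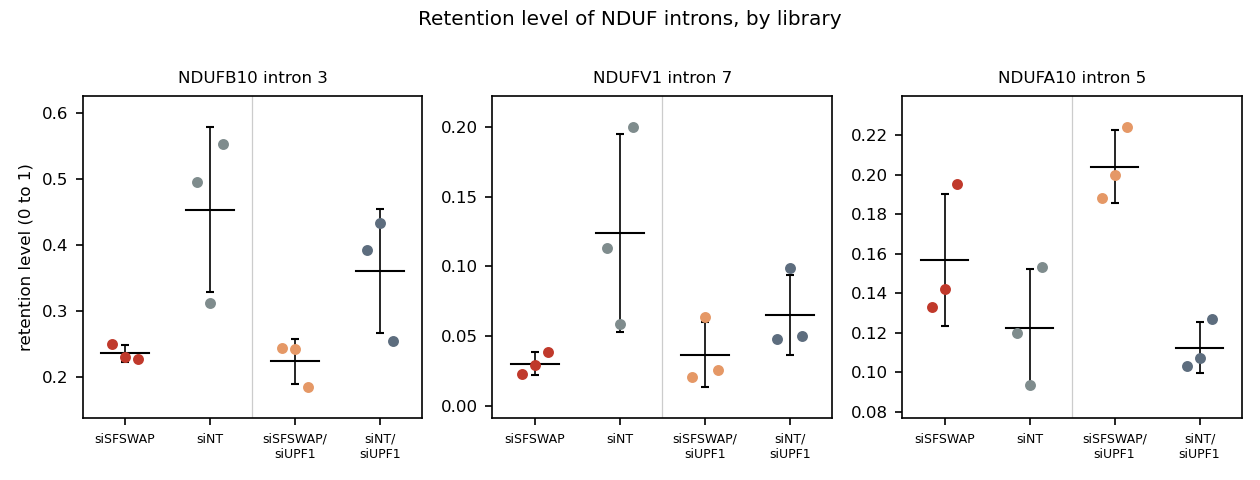
Retention level of NDUFB10 intron 3, NDUFV1 intron 7 and NDUFA10 intron 5 by library (points), with the group mean (line) and SD (whisker, n = 3 libraries), for siSFSWAP, siNT, siSFSWAP/siUPF1 and siNT/siUPF1, each panel on its own axis. NDUFB10 intron 3 lay between 0.227 and 0.250 in siSFSWAP and between 0.313 and 0.553 in siNT, and NDUFA10 intron 5 lay higher in siSFSWAP/siUPF1 than in siNT/siUPF1.

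NDUFS8, a core iron-sulfur subunit of the matrix arm, was looked at in any case because the study's list of predicted decoy exons has one in it. No NDUFS8 event was called. The exon in intron 5 was included at 0.0199, 0.0175 and 0.0140 in siSFSWAP/siUPF1, against 0.00832, 0.00979 and 0.00652 in siNT/siUPF1, from 7, 9 and 9 inclusion reads against 5, 10 and 5. The groups did not overlap, but the difference did not pass the test (log2 odds ratio 0.99, SE 0.70, adjusted p = 0.446). Exon 3 was included at 1.00, 0.976 and 1.00 in siSFSWAP, against 0.902, 0.968 and 0.784 in siNT (log2 odds ratio 3.88, adjusted p = 0.0869), and it passed only when siNT library 2 was left out (adjusted p = 0.0432). Its intron 2 gave log2 odds ratios of 0.97 (adjusted p = 0.346) without and 0.45 (adjusted p = 0.837) with UPF1 knockdown. The intron 5 exon would bring a stop as its first codon, after 124 of 210 codons and 276 bases ahead of the last junction.

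The most read exon members of the other roles did not pass either. NDUFS6 exon 3, in a matrix arm gene, had 4, 1 and 11 skipping reads in siSFSWAP/siUPF1, against 0, 0 and 1 in siNT/siUPF1 (adjusted p = 0.0912), and 4, 2 and 2 in siSFSWAP, against 2, 2 and 4 in siNT (adjusted p = 0.933). Exon 2 of the assembly factor gene NDUFAF2 gave log2 odds ratios of −0.05 (adjusted p = 0.976) without and −0.58 (adjusted p = 0.717) with UPF1 knockdown. An intron of NDUFAF5, also an assembly factor gene (chr20:13801684-13801817), gave −0.70 (adjusted p = 0.723) and 0.24 (adjusted p = 0.936). By role, 15 of 67 matrix arm exon events, 3 of 47 in the membrane arm, 1 of 32 in assembly factors and 2 of 2 in NDUFA4 were called in siSFSWAP against siNT, where 12% were called over all genes. Of the 15 matrix arm calls 11 were NDUFV1 events, and the 2 NDUFA4 events are forms of 1 exon that share their skipping reads.

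No NDUF event had a called difference between the SFSWAP effects with and without UPF1 knockdown. The test across all 12 libraries called 0 of 160 exon events (background 0.00771%) and 0 of 19 introns (background 0.0291%), with 15 and 0 at an unadjusted p under 0.05, and limma on library log2 odds also called 0 of both. An effect seen in only one of the 2 comparisons above is therefore not shown to depend on UPF1.

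Other respiratory chain genes, taken from lists of their subunits, are given by their counts in siSFSWAP against siNT, where 12% of exon events over all genes and 14.2% of NDUF events were called. Of other complex I assembly factor exon events 5 of 43 rose and 0 fell, of complex II 1 of 40 rose and 5 fell, of complex III 13 of 74 rose and 13 fell, of complex IV 1 of 50 rose and 2 fell, and of complex V 4 of 69 rose and 10 fell. The called shares ran from 6% in complex IV to 35.1% in complex III. The complex III calls lay in few of its 11 tested genes: events rose in CYC1, UQCC2 and UQCRH and fell in UQCRB and UQCRH. With UPF1 knockdown, where 7.52% of exon events over all genes were called, the counts were 7 of 57 and 0, 0 of 26 and 0, 3 of 72 and 14, 3 of 68 and 7, and 1 of 54 and 5 in the same order. These counts were not tested against those of NDUF genes.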

How the data were processed

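RNA-seq of 12 libraries of 293A-TOA cells in 4 groups of 3 was used as event tables. Per the labels and the study's methods, the authors trimmed reads with cutadapt 1.9.1, aligned them with STAR 2.7 to GRCh38.p8 with RefSeq genes and predicted decoy exons, and counted events with rMATS using junction and exon reads. The deposited counts are the numbers of reads of the inclusion and the skipping form, not normalised. The deposited inclusion levels are fractions from 0 to 1, the length-corrected share of the inclusion form, and were recomputed here from the counts. The authors' p-values, FDR values and inclusion level differences (a score from −1 to 1) are in the tables and were not used. The tables call the groups only sample 1 and sample 2. Sample 1 was taken as the group without SFSWAP siRNA because the study defines the level difference as siNT minus siSFSWAP.

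Tested events had at least 10 reads per library on average and, over the libraries compared, at least 10 inclusion and 10 skipping reads. The test was a quasi-binomial regression with the dispersion moderated in limma 3.58.1 (R 4.3.3, floor of 1) and a two-sided F test. Benjamini-Hochberg adjustment was made over all events of a type at 0.05. The test was also run on simulated data. No conclusion is drawn from that run for events whose own dispersion was far above the average. Comparisons across UPF1 knockdown used events listed at identical coordinates by the 2 tables concerned. p-values rest on the spread between the libraries deposited after moderation toward the average of all events, and not on each event's own spread. In siSFSWAP against siNT, the dispersion used was 17.97 for the NDUFB10 intron that fell, where its own was 110.7. For the NDUFV1 intron that fell it was 4.08, where its own was 14.6. The p-values of these introns therefore understate the spread of their own libraries. For the NDUFA10 intron called with UPF1 knockdown, the dispersion used was higher (2.19) than its own (1.50). Exon numbers and reading frames come from GENCODE 44, and sequences from the reference genome, with 1-based coordinates. PCR copies were not marked, so counting error understates the spread. The text names called members (1 event per gene, at most 8 genes per direction), NDUFV1 and NDUFS8, and the most read member of each role. One called exon is not reported here. The members and gene lists were chosen with earlier results of these data known.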

Additional observations from a re-analysis of the deposited data

How the results depend on the processing

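In siSFSWAP against siNT the 21 exon calls became 8 with an added difference in level of at least 0.2, 2 with no filter on low counts, 5 and 10 with limma on log2 odds (pseudocounts 0.5 and 1), and 0 with each event's own dispersion, and 11 to 20 when 1 library was left out (11 without siSFSWAP library 2, 12 without siSFSWAP library 1 and 13 without siNT library 3). The 3 intron calls became 1 with the added difference, 0 with no filter, with either limma test or with own dispersions, and 2 to 7 without 1 library (7 without siNT library 2). In siSFSWAP/siUPF1 against siNT/siUPF1 the 17 exon calls became 6 with the added difference, 11 with 1 event per exon, 0 with no filter, either limma test or own dispersions, and 5 to 20 without 1 library (5 without siNT/siUPF1 library 1 or siSFSWAP/siUPF1 library 3, 7 without siSFSWAP/siUPF1 library 1), and the 2 intron calls became 0 under those settings other than 1 event per intron, and 1 to 4 without 1 library (4 without siNT/siUPF1 library 3 and 1 without siSFSWAP/siUPF1 library 3). In siNT/siUPF1 against siNT the 5 exon calls became 2 with 1 event per exon, 0 with no filter, either limma test or own dispersions, and 1 to 7 without 1 library (1 without siNT library 1 and 2 without siNT/siUPF1 library 2). Own dispersions called 0 events over all genes in each of these. The exon test of the difference between SFSWAP effects called 0 to 1 without 1 library (NDUFV3 exon 3, without siNT library 2). No called event changed direction. The cause of these differences between tests was not tested. No paired analysis was possible because the tables list the libraries of a group without replicate numbers.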
